A study of Mus musculus with 4 samples.

Results

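The cytosolic chaperonin CCT, also called TRiC, is encoded by 8 genes, and the levels of all 8 mRNAs (Tcp1, Cct2, Cct3, Cct4, Cct5, Cct6a, Cct7 and Cct8) were compared between mouse embryonic stem cells (ESCs) depleted of CNOT1 and control ESCs. The 8 genes were taken by symbol from the 50559 genes listed and all 8 had enough counts to be tested. They were chosen by their counts in these same groups, in which Cct3 moves against the other subunits, so their differences are given as a description, with no test. The cells were E14 ESCs, which the study's methods describe as carrying a tdTomato reporter driven by the MERVL promoter, kept in a serum-replacement medium with leukemia inhibitory factor. In the siNT group they received a non-targeting siRNA and in the siCnot1 group an siRNA against Cnot1, each at 150 nM with a lipid reagent, and were collected after 48 h, and each group had 2 independent biological replicates, which makes 4 libraries. Which of the siRNAs against Cnot1 was used is not given in the sources used here, and both groups share a single parental line.

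CCT is a double ring in which each ring holds every subunit at a fixed place. Newly made proteins enter the cavity, are closed in when ATP is hydrolysed, and are released folded. Actin and tubulin are its best known clients, and many WD-repeat proteins also need it. The subunits are paralogs that arose by old duplications, and each is needed for the ring to form. Around the ring, CCT1 (made from Tcp1), CCT2, CCT4 and CCT5 form the side that binds ATP tightly, and CCT3, CCT6, CCT7 and CCT8 the side that binds it weakly. CNOT1, the protein depleted here, holds together the CCR4-NOT complex, whose deadenylases shorten the poly(A) tails of mRNAs.

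Total counts on genes were between 32135824 and 32557440 per library, and 18144 genes were tested. A count of 3 corresponded to 0.0921 to 0.0934 CPM, the count scaled to library size, far under every subunit, and this floor covers counting error only. Cnot1 had 28397 and 30903 counts in siNT and 6188 and 6425 in siCnot1, a log2 fold change of -2.33 (SE 0.0587, Benjamini-Hochberg adjusted p = 2.37e-18 in the edgeR quasi-likelihood fit). The 8 ESC markers examined, Pou5f1 and Nanog among them, were above 1 CPM in every library. They summed to 6784 and 6563 CPM in siNT and to 5527 and 5868 CPM in siCnot1. This list was thus lower in siCnot1, as the 7 subunits other than Cct3 were. By edgeR, 6 of the 8 genes were called lower at an adjusted p under 0.05 (Pou5f1, Nanog, Sox2, Esrrb, Tfcp2l1 and Dppa5a). Over all tested genes 14.7% were called lower. Among those with a mean of at least 100 normalized CPM, a level that all 8 markers reached, 43.7% were. Of 7 fibroblast markers, Col3a1 and Dcn had 0 counts in every library, and the list summed to 16.99 and 20.2 CPM in siNT and to 29.1 and 25.1 CPM in siCnot1. Of 5 trophectoderm markers, 4 were under 1 CPM in every library and the list summed to between 3.01 and 5.93 CPM. The 6 primitive endoderm markers summed to 11.3 and 9.28 CPM in siNT and to 15.4 and 15.9 CPM in siCnot1. Most of this difference lay in Dab2, with means of 4.14 CPM in siNT and 8.39 CPM in siCnot1. Gata4 and Sox17 had log2 fold changes of 0.79 and 0.72, Gata6 and Sox7 of -0.11 and -0.10, and none of these was called. Foxa2 had 4 counts in siCnot1 replicate 2 and 0 in every other library. The 5 markers of the 2-cell-like state, Zscan4 genes and Usp17la, summed to 64.7 and 65.3 CPM in siNT and to 170 and 176 CPM in siCnot1. The part of these cell states in the values below was not tested. In bulk RNA, fewer cells with an mRNA and less of that mRNA per cell cannot be told apart.

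Cct3 was the lowest of the 8 subunit mRNAs in control cells and the next to highest after depletion of CNOT1. Its level was 143 ± 1.80 FPKM in siNT and 302 ± 3.99 FPKM in siCnot1 (SD, n = 2 per group), which is 211% of the control level in the fit across all genes. FPKM here means normalized CPM, scaled by TMM, divided by the exon length listed for the gene in kilobases, and it is the scale on which levels of different genes are compared below. The other 7 subunit mRNAs were each lower in siCnot1, at 77.1% to 83.2% of control. So the subunit that was scarcest as mRNA moved to the level of its partners. The 7 partners moved down by proportions similar to one another, smaller than the move of Cct3.

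**Figure D1:**
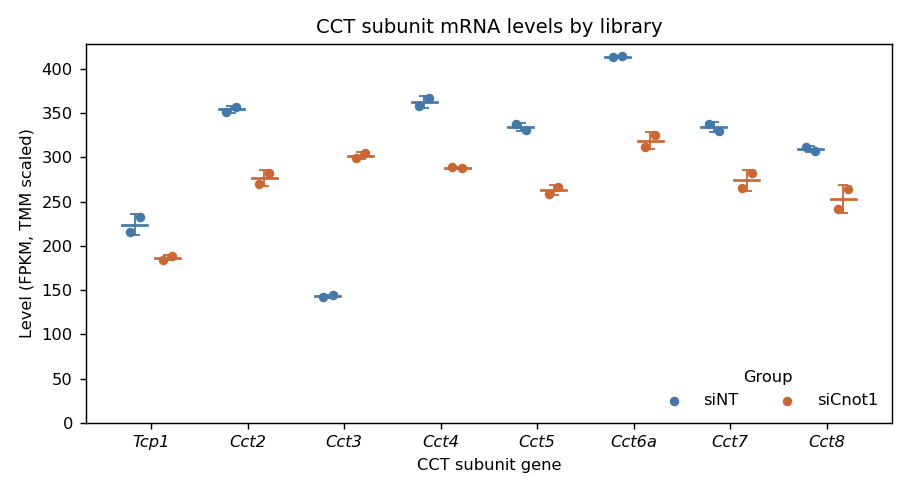
The level of each CCT subunit mRNA (vertical axis, FPKM from 0) is plotted for each of the 4 libraries, with siNT in blue and siCnot1 in orange, the horizontal line marking the mean of 2 libraries and the error bar its SD. Cct3 goes from 143 to 302 FPKM, whereas in the other 7 genes the siCnot1 points lie under the siNT points.

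The 8 genes lie on 8 chromosomes, so no subunit gene is a neighbour of another. In the positions of the deposited table, which are those of the mouse assembly GRCm39, Cct3 spans chr3:88204442-88229073 on the plus strand. Tcp1 lies at chr17:13135216-13143954, Cct4 at chr11:22940593-22953336, Cct6a at chr5:129864420-129875284 and Cct7 at chr6:85428487-85445459, all on the plus strand. Cct2 at chr10:116886902-116899757, Cct5 at chr15:31590946-31601992 and Cct8 at chr16:87280213-87292757 lie on the minus strand. Each is a gene of several exons, 12 to 17 after merging of overlapping exons, with a listed exon length of 1957 to 2499 bases. Cct3 has the shortest listed length, 1957 bases. The processed pseudogenes Cct3-ps1 and Tcp1-ps1 had 0 counts in every library.

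The promoters of the subunit genes were read from RefSeq (assembly GRCm38.p6, joined by gene symbol, with no position set against those of the count table), from 250 bases before to 50 bases after the start of transcription. Of the 8 genes, 7 had an entry, in 9 windows. 4 of them are printed because Cct3 can be set there beside the 3 other subunit genes whose windows hold a CCAAT box: Tcp1 and Cct6a, whose products flank CCT3 in the ring, and Cct7. Each is in lower case, 5′ to 3′ on the plus strand, in which all 4 genes are transcribed. The capitals mark the CCAAT box (CCAAT, or ATTGG where it lies on the other strand) and the GC box (GGGCGG or CCGCCC), a site of the kind bound by SP1.
Cct3, chr3:88296885-88297184: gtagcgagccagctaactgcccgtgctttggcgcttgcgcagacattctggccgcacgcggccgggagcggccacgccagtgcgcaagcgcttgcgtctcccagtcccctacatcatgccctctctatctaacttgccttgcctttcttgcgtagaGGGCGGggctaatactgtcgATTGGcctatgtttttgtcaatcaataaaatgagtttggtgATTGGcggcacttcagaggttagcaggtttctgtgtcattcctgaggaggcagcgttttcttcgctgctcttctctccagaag
Tcp1, chr17:12916079-12916378: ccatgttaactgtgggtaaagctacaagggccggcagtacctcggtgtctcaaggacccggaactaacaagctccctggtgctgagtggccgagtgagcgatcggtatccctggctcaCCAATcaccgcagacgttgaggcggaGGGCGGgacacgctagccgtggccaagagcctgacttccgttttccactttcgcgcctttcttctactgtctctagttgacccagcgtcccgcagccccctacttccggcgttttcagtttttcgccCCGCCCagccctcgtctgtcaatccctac
Cct6a, chr5:129787106-129787405: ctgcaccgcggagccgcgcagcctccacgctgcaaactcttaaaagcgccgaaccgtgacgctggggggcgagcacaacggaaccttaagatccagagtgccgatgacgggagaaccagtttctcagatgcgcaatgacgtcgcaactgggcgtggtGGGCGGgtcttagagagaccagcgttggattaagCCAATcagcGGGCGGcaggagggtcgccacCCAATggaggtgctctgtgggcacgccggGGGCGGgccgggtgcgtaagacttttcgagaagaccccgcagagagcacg
Cct7, chr6:85451255-85451554: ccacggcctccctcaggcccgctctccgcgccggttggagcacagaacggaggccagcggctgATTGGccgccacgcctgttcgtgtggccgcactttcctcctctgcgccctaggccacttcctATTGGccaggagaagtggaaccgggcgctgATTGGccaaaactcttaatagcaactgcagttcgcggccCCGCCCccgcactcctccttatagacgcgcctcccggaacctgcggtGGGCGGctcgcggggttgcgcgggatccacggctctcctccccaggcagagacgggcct

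The Cct3 window holds ATTGG at positions -74 and -33 from the start and GGGCGG at -94. Cct6a holds CCAAT at -59 and -29 and 3 GC boxes, Cct7 holds ATTGG at -187, -125 and -95 and 2 GC boxes, and Tcp1 holds CCAAT at -132 and 2 GC boxes. A CCAAT box was thus in the windows of 4 of 7 subunit genes, and in those of 43.0% of the 12821 tested genes with a window. The GC box was in windows of all 7 genes with an entry, against 63.2% of tested genes. A site for ETS factors (CCGGAAG or CTTCCGG) was found in Cct2, Cct8 and Tcp1, against 17.7% of tested genes, and not in Cct3. For heat shock factor, which acts on many chaperone genes, the paired forms GAANNTTC and TTCNNGAA were searched. GAANNTTC was in Cct2 alone (7.25% of tested genes) and TTCNNGAA in Cct5 and Cct6a (8.46% of tested genes). The E-box CACGTG and the TATA box TATAAA were in none of the 9 windows, against 11.2% and 9.45% of tested genes. Windows were 47.3% to 67.7% G and C, with 55.3% in Cct3, around the median of 59.7% over windows of tested genes. A match here is a run of letters and not a measured site, and these windows show no motif that was searched for and found in Cct3 alone.

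In siNT, Cct6a had the highest level, 413 and 414 FPKM, followed by Cct4 with 358 and 367 FPKM and Cct2 with 352 and 357 FPKM. Cct5 (337 and 331 FPKM) and Cct7 (338 and 330 FPKM) did not differ beyond their spread. Cct8 followed with 312 and 307 FPKM, Tcp1 with 215 and 233 FPKM and Cct3 with 142 and 144 FPKM. At every other step in this order the libraries of neighbouring genes did not overlap. That covers the spread between libraries, and not any error in the listed exon lengths. The 8 mRNAs spanned a 2.92-fold and a 2.87-fold range in the siNT libraries, although their products occupy equal numbers of places in the ring.

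Relative to the other subunits, Cct3 mRNA was low in control cells. It stood at 41.9% and 43.6% of the median of the other 7 mRNAs in the siNT libraries. In the siCnot1 libraries it stood at 113% and 108% of that median. Of all counts on the 8 genes, Cct3 took 5.00% and 5.06% in siNT and 12.4% and 12.2% in siCnot1. The groups do not overlap on any of these measures, and within a group the libraries lay close together.

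In siCnot1 the order was Cct6a with 312 and 326 FPKM, Cct3 with 299 and 304 FPKM and Cct4 with 289 and 288 FPKM. Cct2 (270 and 283 FPKM), Cct7 (265 and 282 FPKM), Cct5 (259 and 267 FPKM) and Cct8 (242 and 264 FPKM) overlapped their neighbours in the order. Tcp1 was lowest, at 184 and 189 FPKM. The range over the 8 mRNAs was 1.69-fold and 1.73-fold, narrower than in siNT. Among the 7 genes without Cct3 it was 1.92-fold and 1.78-fold in siNT and 1.69-fold and 1.73-fold in siCnot1, so most of the narrowing was the move of Cct3.

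The side of the ring that binds ATP tightly is made from Tcp1, Cct2, Cct4 and Cct5. Tcp1, which gives CCT1, had 16751 and 18242 counts in siNT and 15440 and 15785 in siCnot1, a log2 fold change of -0.26 (SE 0.0556). Cct2 had 24275 and 24830 counts in siNT and 20051 and 20995 in siCnot1, a log2 fold change of -0.36 (SE 0.0532). Both siCnot1 libraries lay under both siNT libraries in each gene. Cct4 had 21916 and 22664 counts in siNT and 19046 and 18941 in siCnot1 (log2 fold change -0.33, SE 0.0526). Cct5 had 22400 and 22130 in siNT and 18523 and 19062 in siCnot1 (log2 fold change -0.35, SE 0.0529). All 4 genes of this side were therefore lower by similar amounts.

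The side that binds ATP weakly holds the exception. Cct3 had 8630 and 8851 counts in siNT and 19599 and 19949 in siCnot1, a log2 fold change of 1.08 (SE 0.0541). Cct6a, which gives the neighbour CCT6 in the ring, had 29617 and 29908 counts in siNT and 24074 and 25102 in siCnot1, a log2 fold change of -0.38 (SE 0.0526), the lowest of the 8. Cct3 and Cct6a thus changed in opposite directions, although their products touch in the ring. Their levels came closer, with a log2 ratio of Cct3 to Cct6a counts of -1.77 in siNT and -0.31 in siCnot1. Cct7 had 25791 and 25360 counts in siNT and 21805 and 23184 in siCnot1 (log2 fold change -0.29, SE 0.0539). Cct8 had 23200 and 23039 in siNT and 19398 and 21135 in siCnot1 (log2 fold change -0.29, SE 0.0555), with the widest spread between siCnot1 libraries.

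Among the 8 genes, libraries of the groups did not overlap in any, with siCnot1 below siNT in 7 and above it in Cct3. Over all tested genes, both siCnot1 libraries lay below both siNT libraries in 31.2% and above them in 32.7%. Among the 2443 tested genes with a mean of at least 100 normalized CPM, a limit set after the data were seen and met by all 8 subunits, these shares were 60.7% and 20.6%. The median log2 fold change was -0.12 over these abundant genes and 0.0084 over all tested genes, against -0.33 over the other 7 subunits. Lower values were common among these abundant genes. Of the 2443, 337 had a log2 fold change within the range of the other 7 subunits, a count that includes those 7. The subunits lay well above the limit of 100, with 279.6 normalized CPM (Cct3 in siNT) as the lowest group mean. The value of Cct3 was not common, since a log2 fold change of at least 1 was reached by 0.123% of the abundant genes and by 7.59% of all tested genes. The abundant genes concerned were 3, namely Cct3, the mitochondrial mRNA COX1 (log2 fold change 1.10) and the pseudogene transcript Pisd-ps3 (1.11), the last 2 named after their values were seen.

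**Figure D2:**
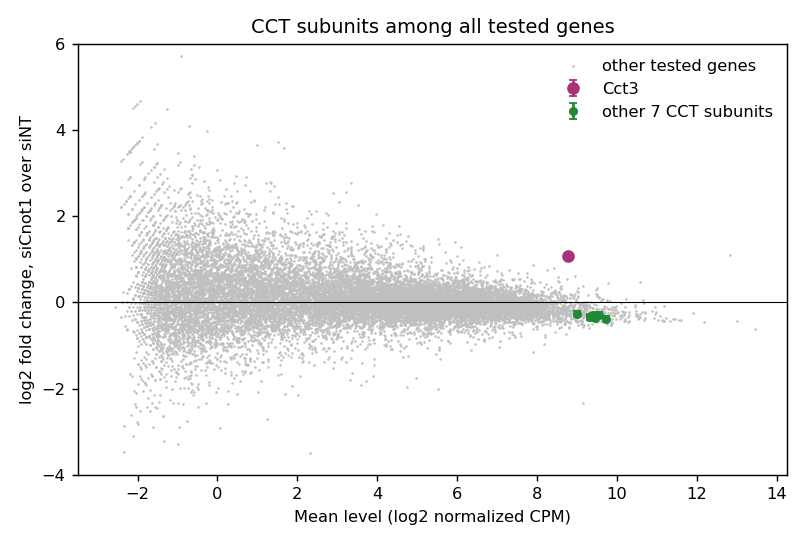
The log2 fold change of siCnot1 over siNT is plotted against the mean log2 normalized CPM for the tested genes (grey), the other 7 CCT subunits (green) and Cct3 (purple), with error bars of 1 SE that are mostly hidden by the points, and 12 genes lie outside the vertical range. Cct3, at 1.08, stands above the grey points of similar level, and the other 7, between -0.38 and -0.26, lie within them.

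Ratios between subunits within a library do not depend on the scaling between libraries, but they come from the same counts that chose the genes and are no further evidence. The log2 ratio of Cct3 to the mean of the other 7 stood at -1.21 and -1.19 in the siNT libraries, against 0.22 and 0.18 in siCnot1, a change of 1.399. In the 7 pairs of Cct3 with another subunit, the log2 ratio changed by 1.34 to 1.45. In the 21 pairs of the other subunits it changed by 0.0055 to 0.11. Cct7 and Cct8 kept the closest ratio of all pairs and Tcp1 and Cct6a the least close of the 21.

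The gain of Cct3 did not make up for the lower levels of its partners in the summed mRNA. On the scale of normalized CPM, Cct3 stood at 279.6 ± 3.52 in control cells and at 590.1 ± 7.81 after depletion (SD, n = 2 each). The other 7 summed to 5281 ± 22.3 in control cells and to 4216 ± 127 after depletion (SD, n = 2 each), 79.8% of control. All 8 together stood at 86.4% of control on this scale and at 87.3% in summed FPKM. On both scales the sums of the groups did not overlap.

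The pathway around CCT was then examined in 68 genes that the choice of the subunits did not use, in 8 lists: prefoldin, phosducin-like proteins, the R2TP and prefoldin-like complex, tubulin folding cofactors, actins and tubulins, WD-repeat and other clients, other genes of the chaperonin fold, and heat shock factors. All 68 were tested, and in siCnot1 8 were higher and 22 lower by the edgeR fit (Benjamini-Hochberg adjusted p under 0.05, over the 18144 genes). Over all tested genes, 15.0% were higher and 14.7% lower. Of the 68, 11.8% were higher and 32.4% lower, against 12.2% and 43.7% of the abundant genes. Not all of the 68 reached the level of that group. The median log2 fold change of the 68 was -0.13. With library totals in place of TMM, which shift the median over all tested genes to 0.12, 13 were higher and 13 lower.

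**Figure D3:**
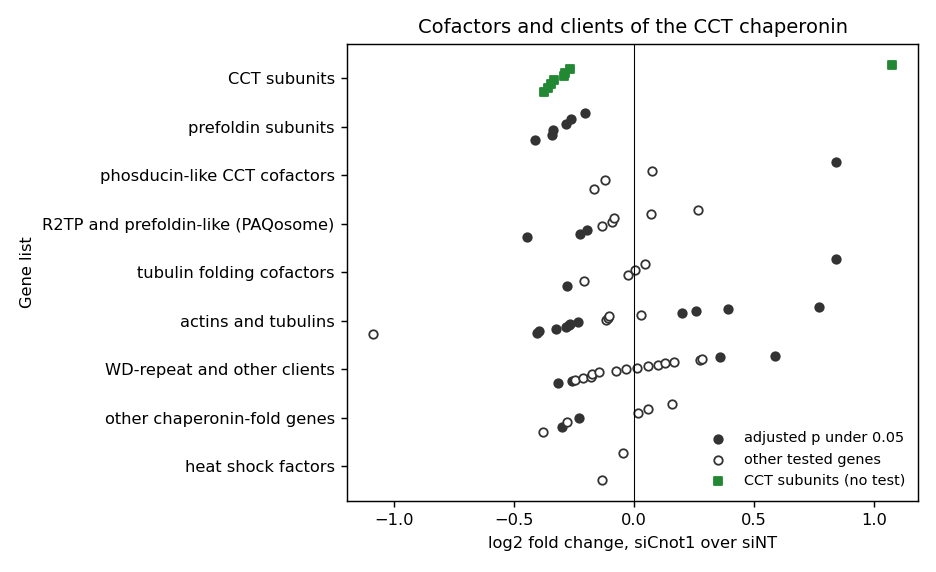
Each point is a gene, placed by its log2 fold change of siCnot1 over siNT (horizontal axis) in the row of its list, with filled points for an adjusted p under 0.05, open points for other tested genes and green squares for the CCT subunits, which have no test. All 6 prefoldin genes lie left of 0 and are filled, while actins and tubulins are found on both sides.

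The mRNAs of prefoldin, a cofactor that carries nascent actin and tubulin to CCT, were lower. All 6 of its subunit genes were called lower, against 14.7% of all tested genes and 43.7% of abundant genes. None was above 0 with any other scaling. Of the 6, only Pfdn1 and Vbp1 had a mean of at least 100 normalized CPM. Vbp1 had 4235 and 4636 counts in siNT and 3664 and 3478 in siCnot1 (log2 fold change -0.41, SE 0.0640, adjusted p = 3.00e-05 from edgeR). Pfdn6 (-0.34, adjusted p = 0.00063) and Pfdn2 (-0.34, adjusted p = 0.00164; -0.22 without siNT replicate 1) followed, and the median of the 6 was -0.31. This median lies near that of the other 7 CCT subunits, -0.33. With library totals in place of TMM 3 of the 6 were called, without the filter on low counts 2, and with a library left out 1 to 3, the fewest without siNT replicate 1.

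Among the 4 phosducin-like genes, whose products bind CCT and modulate folding, only Pdcl2 was called. Thus 25% were higher and 0% lower, against 15.0% and 14.7% of all tested genes. It had 69 and 91 counts in siNT and 187 and 121 in siCnot1, a log2 fold change of 0.84 (SE 0.259, adjusted p = 0.0158 from edgeR). Pdcl2 is best known from the male germ line and was low here, whereas Pdcl, Pdcl3 and Txndc9 had at least 1571 counts in every library and were not called. Pdcl2 was not called when low genes were kept in (adjusted p = 0.141 from edgeR). With each library left out it ranged from 0.49 (without siCnot1 replicate 1) to 1.12 (without siCnot1 replicate 2) and was called only in the latter fit.

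R2TP is a chaperone complex that assembles large protein machines and works beside a prefoldin-like complex. Of its 8 genes tested, none was higher and 3 were lower, 37.5% against 14.7% of all tested genes. These 3 were the only genes of the 8 with a mean of at least 100 normalized CPM, where 43.7% of genes were lower. Fewer were called lower with any library left out. Ruvbl1, an ATPase of the complex, had 6495 and 6117 counts in siNT and 4946 and 4989 in siCnot1, a log2 fold change of -0.44 (SE 0.0592, adjusted p = 4.50e-06 from edgeR). Its partner ATPase Ruvbl2 (-0.23, adjusted p = 0.0078) and the prefoldin-like Uri1 (-0.20, adjusted p = 0.0108) were also lower, and neither was called with library totals. Ruvbl2 had -0.15 without siCnot1 replicate 1, and Uri1 was not called with any library left out.

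The tubulin folding cofactors take tubulin after its release from CCT and build the dimer. Of 6, 1 was higher and 1 lower, 16.7% in each direction. This lies near the 15.0% and 14.7% of all tested genes. Tbcc, which triggers the last step, had 540 and 496 counts in siNT and 925 and 1067 in siCnot1, a log2 fold change of 0.84 (SE 0.110, adjusted p = 3.49e-06 from edgeR). Tbcb had a log2 fold change of -0.28 (SE 0.0835, adjusted p = 0.0135 from edgeR) and was not called with library totals. With each library left out it ranged from -0.43 (without siNT replicate 2) to -0.12 (without siNT replicate 1) and was called only in the former fit. The median of the 6, -0.0096, was above 0 with upper-quartile scaling and with library totals.

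Of 16 genes of actin and tubulin, the main clients of CCT, 4 were higher and 7 lower, 25% and 43.8%. These shares were 15.0% and 14.7% over all tested genes, and 12.2% and 43.7% over abundant genes. Some of the 16, such as Tubb3 and Tubd1, had a mean under 100 normalized CPM. Without siNT replicate 1 there were 1 higher and 2 lower, and without any other library 2 to 4 higher and 3 to 6 lower. The 3 most significant among the lower genes were Actg1 (log2 fold change -0.40, SE 0.0516), Tuba1b (-0.29, SE 0.0533) and Actb (-0.27, SE 0.0535), the housekeeping forms of actin and alpha tubulin, with adjusted p of 2.77e-06, 0.000252 and 0.000423 from edgeR. The higher genes were led by Tubb3, an isotype known from neurons, which had 1916 and 2043 counts in siNT and 3628 and 3610 in siCnot1 (log2 fold change 0.77, SE 0.0673, adjusted p = 1.34e-08 from edgeR). Tubb6 (0.39, adjusted p = 5.97e-05) and Tuba1a (0.26, adjusted p = 0.00124) were also higher. Higher and lower genes thus stood side by side within both the alpha and the beta tubulins.

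Of 19 WD-repeat and other clients, 2 were higher and 3 lower, and 14 were not called. These shares, 10.5% and 15.8%, lie near the 15.0% and 14.7% of all tested genes. Strn3, a striatin that scaffolds a phosphatase complex, had a log2 fold change of 0.36 (SE 0.0629, adjusted p = 0.000129 from edgeR). Bbs7, a subunit of the BBSome of cilia, had 205 and 138 counts in siNT and 278 and 275 in siCnot1 (0.59, SE 0.189, adjusted p = 0.0212 from edgeR), and was not called by DESeq2. It had 0.32 without siNT replicate 2 and 0.90 without siNT replicate 1, and was called only in the latter of the 4 such fits. The lower genes were Cdc20, an activator of the anaphase-promoting complex (-0.32, adjusted p = 0.000194), the G protein subunit Gnb1 (-0.26, adjusted p = 0.000876) and Dcaf7 (-0.17, adjusted p = 0.0343). Dcaf7 was not called with library totals, with upper-quartile scaling or with the replicate number as a block (adjusted p = 0.0629 from edgeR).

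Of 7 other genes with a chaperonin fold or working with such a protein, the mitochondrial pair was lower. This is 28.6% of the list, against 14.7% of all tested genes. Both genes of the pair had a mean of at least 100 normalized CPM, where 43.7% of genes were lower. Hspd1, the mitochondrial chaperonin, had 53288 and 53924 counts in siNT and 47242 and 50734 in siCnot1, a log2 fold change of -0.23 (SE 0.0530, adjusted p = 0.00186 from edgeR). Its lid Hspe1 had a log2 fold change of -0.30 (SE 0.0658, adjusted p = 0.00117 from edgeR). Hspd1 was not called with library totals (adjusted p = 0.0559 from edgeR) and Hspe1 not when low genes were kept in (adjusted p = 0.0824 from edgeR), and Hspe1 had -0.18 without siNT replicate 1. The paralogs of CCT subunits were barely present: Cct6b, a testis form of CCT6, had between 35 and 49 counts per library, and Cct8l1 between 26 and 41. With so few counts no difference was detectable in them (log2 fold changes -0.38 and 0.16, SE 0.377 and 0.451, adjusted p = 0.496 and 0.838 from edgeR). Mkks (0.060, adjusted p = 0.701), Bbs10 (0.015, adjusted p = 0.957) and Bbs12 (-0.28, adjusted p = 0.224), which assemble the BBSome with CCT, were not called. Neither were the heat shock factors Hsf1 (-0.044, adjusted p = 0.769) and Hsf2 (-0.13, adjusted p = 0.315), and Hsf1 was above 0 with library totals.

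The genes next to the subunit genes were examined to see whether Cct3 stood alone at its locus. Within 50000 bases of the bounds of the 8 genes the table lists 46 other genes, of which 33 were tested. By the edgeR fit 5 were higher and 5 lower (adjusted p under 0.05), 15.2% in each direction, close to the 15.0% and 14.7% of all tested genes. Around Cct3 7 genes were tested, 4 were higher and none was lower, and the median log2 fold change was 0.39. Around the other 7 subunit genes 26 were tested, 1 was higher and 5 lower, with a median of -0.069, which was 0.038 with library totals. No test of the difference between these sets of neighbours was run, and with each library left out in turn 0 to 2 of the 33 were called in each direction.

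Upstream of Cct3, Tsacc starts 136 bases away on the opposite strand, a head-to-head pair. Tsacc, which binds a kinase of the male germ line, had 150 and 159 counts in siNT and 111 and 136 in siCnot1, a log2 fold change of -0.42 (SE 0.216, adjusted p = 0.15 from edgeR). Its point estimate is opposite to that of Cct3, and at this depth it was not distinguished from 0. Downstream, Glmp, a glycosylated membrane protein of lysosomes, begins 3257 bases past the end of Cct3. Glmp had 1511 and 1490 counts in siNT and 2187 and 2027 in siCnot1, a log2 fold change of 0.39 (SE 0.0797, adjusted p = 0.000636 from edgeR). The difference was smaller than that of Cct3, and the call was lost without siNT replicate 1, siNT replicate 2 or siCnot1 replicate 1 (adjusted p from 0.0511 to 0.0581 in edgeR).

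The other 3 called genes around Cct3, named after their values were seen, were Smg5, Rhbg and Paqr6. Smg5, a factor of nonsense-mediated decay, had 6503 and 6665 counts in siNT and 8091 and 8211 in siCnot1 (log2 fold change 0.21, SE 0.0559, adjusted p = 0.00655 from edgeR). Rhbg, an ammonium transporter, had 84 and 90 counts in siNT and 191 and 134 in siCnot1 (0.80, SE 0.240, adjusted p = 0.0136 from edgeR). Paqr6 had 4 and 5 counts in siNT, close to the floor of 3, and 28 and 30 in siCnot1 (2.56, SE 0.663, adjusted p = 0.00498 from edgeR). Of the 4 called genes near Cct3, only Paqr6, the one with the fewest counts, had a log2 fold change above that of Cct3.

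**Figure D4:**
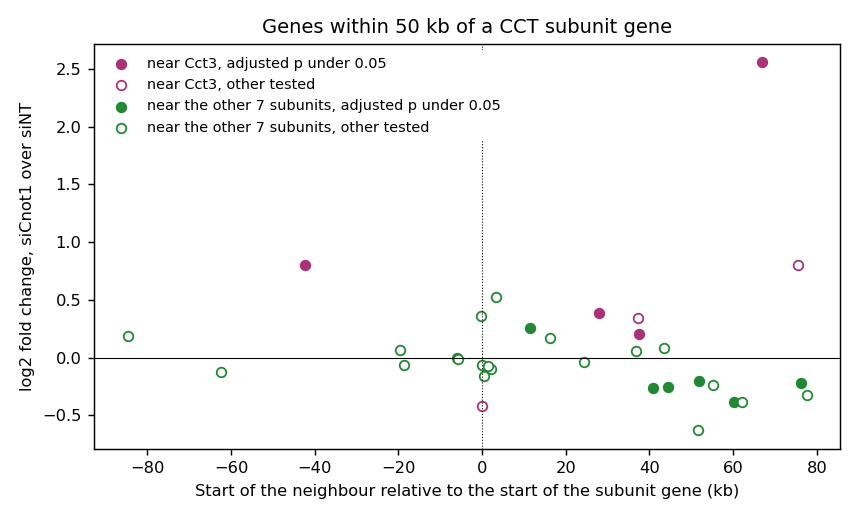
Each point is a tested gene whose bounds lie within 50000 bases of a CCT subunit gene, placed by the distance of its start from the start of that gene in kilobases (negative values upstream) and by its log2 fold change of siCnot1 over siNT, in purple near Cct3 and in green near the other 7, filled for an adjusted p under 0.05. Near Cct3, 6 of 7 points are above 0, and near the other 7 subunit genes 18 of 26 are below 0 with TMM scaling and 11 of 26 with library totals.

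An opposite-strand gene start within 2000 bases, a window chosen after the data were seen, was found for 6 of the 8 subunit genes (Tcp1, Cct3, Cct5, Cct6a, Cct7 and Cct8), against 25.9% of tested genes. Genes that overlap a subunit gene are listed for Tcp1, Cct6a, Cct7 and Cct8 and not for Cct3. Mrpl18, a mitochondrial ribosomal protein, shares 1459 bases of bounds with Tcp1 and had a log2 fold change of -0.071 (adjusted p = 0.457 from edgeR). LOC115488839 (138 bases) and Acat3 (1238 bases) also overlap Tcp1 and had at most 35 counts per library, with log2 fold changes of 0.53 and -0.041 (adjusted p = 0.50 and 0.968 from edgeR). Pradc1 shares 483 bases with Cct7 and had a log2 fold change of -0.16 (adjusted p = 0.396 from edgeR). Usp16, a deubiquitinase, shares 191 bases with Cct8 and was lower, with a log2 fold change of -0.26 (SE 0.0770, adjusted p = 0.0114 from edgeR), and it was not called with library totals. Inside Cct6a the small RNA gene Gm23245 had between 6 and 14 counts (-0.098, adjusted p = 0.942 from edgeR), and Snora15 and Snora20, the latter inside Tcp1, were too low to test. The strand setting of the counting is not given in the sources used here, so for overlapping genes the split of reads between strands is uncertain.

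Genes whose levels followed those of the subunits over the 4 libraries were found by the Euclidean distance between log2 normalized CPM values centred on each gene's mean, among genes with a mean level within 2-fold. For Cct3, 822 genes were candidates, and the nearest were Piezo1, a mechanosensitive ion channel (distance 0.351, log2 fold change 0.75), Apoe, a lipid carrier (0.351 and 0.87), and the ribosomal RNA repeat Rn18s-rs5 (0.392 and 0.80). The nearest CCT subunit to Cct3, Tcp1, was at a distance of 1.34. For the mean of the other 7, 442 genes were candidates, and the nearest were the RNA-binding protein genes Fxr1 (0.0136, log2 fold change -0.31) and Hnrnpf (0.0182 and -0.31), and Rps3a2, a copy of a ribosomal protein gene whose reads may be shared with its parent (0.0186 and -0.33). The first distances are to a single gene and the second to a mean of 7, so they are not compared. Over 4 libraries, distance mostly reflects the difference between groups, which chose the subunits.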

How the data were processed

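The authors prepared poly(A)+ libraries with a dUTP protocol that marks strand and sequenced them in pairs on the Illumina NovaSeq platform. They deposited raw read counts per gene, with replicates kept apart and no normalization, beside each gene's exon length. The submitters' processing notes name fastp 0.19.4, HISAT2 2.2.1, DESeq2 1.40.2 and mm10, but the positions in the table are those of GRCm39; the counting program and its strand setting are not given in the sources used here. The study's own test was DESeq2 on condition.

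Here the counts were scaled by TMM, filtered with filterByExpr (minimum count 10) and tested with edgeR 4.0.16 in R 4.3.3 (quasi-likelihood, condition as the only term), with Benjamini-Hochberg adjustment over 18144 genes and calls at an adjusted p under 0.05. Standard errors are the log2 fold change over the square root of F. FPKM used the listed lengths. At 32135824 to 32557440 counts per library, the biological coefficient of variation was 0.0721. Replicates differed by more than counting noise (chi-square per degree of freedom 6.71 in siNT and 5.61 in siCnot1) and were kept as 2 each. The fits were tested on simulated data.

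The members and gene lists were chosen with earlier results of these data known. Named were all 8 subunits, Cnot1, at most 3 called genes of each list in each direction by adjusted p, all genes of the chaperonin and heat shock factor lists, the nearest tested gene on each side of Cct3, genes overlapping a subunit gene and the 3 nearest in pattern; other names were chosen after their values were seen. Promoter sequences are RefSeq's, in GRCm38.p6. Also tried were other scalings (size factors of DESeq2, upper quartiles, library totals), other filters (none, or 1 CPM in at least 2 libraries), other tests (DESeq2 1.42.0, and voom in limma 3.58.1), a block for the replicate number, TPM for levels, and leaving out each library.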

Additional observations from a re-analysis of the deposited data

How the results depend on the processing

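The log2 fold change of Cct3 lay between 1.07 and 1.18 in the 8 alternatives other than leaving out a library, with 1.10 under upper-quartile scaling and 1.18 with library totals, and between 1.06 and 1.09 with each library left out in turn. The other 7 subunits were below 0 in every setting. Their median was -0.33, -0.22 with library totals, and -0.36 to -0.31 with a library left out. Relative to the median of all tested genes it was -0.34 under both TMM and library totals. Cct3 over the median of the other 7 in siNT, 0.428, was 0.419 and 0.436 in each library alone.

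Calls over all tested genes depended on the setting. No filter gave 1303 higher and 1450 lower, library totals gave 1567 lower, and leaving out a library gave 743 to 1444 higher and 871 to 1469 lower. Of the 68 partners and clients, library totals gave 13 higher and 13 lower, no filter gave 12 lower, and leaving out a library gave 4 to 6 higher and 5 to 15 lower. Of the 33 neighbours, library totals gave 9 higher and 0 lower, no filter gave 3 higher and 0 lower, and leaving out a library gave 0 to 2 in each direction. A fit without 1 library has fewer samples and a lone sample in a group, which is assumed to vary like the others. The causes of these changes in calls were not tested. Among the called genes named from the pathway lists, Vbp1, Ruvbl1, Tbcc, Tubb3, Actg1 and Strn3 were called with every library left out, and each of the others lost its call in 1 to 4 of the 4 fits.

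Among the genes named by the rules stated above, signs turned only in genes that were not called. Other listed genes turned too: around the other 7 subunit genes, 8 were above 0 with TMM and 15 with library totals. Of the genes named by rule, Hsf1 had 0.063 with library totals, Gm23245 0.0081, Mrpl18 0.036 and Acat3 0.064. With a library left out, the ranges crossed 0 for Cct8l1 (-0.21 to 0.44), Bbs10 (-0.027 to 0.048), Hsf1 (-0.15 to 0.045), Hsf2 (-0.29 to 0.030), Gm23245 (-0.58 to 0.62), LOC115488839 (-0.011 to 1.38) and Acat3 (-0.60 to 0.36).

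With the replicate number as a block the log2 fold change of Cct3 was 1.08 and the median of the other 7 was -0.33. The deviations of libraries that share a number had a correlation of 0.0144 over 18144 genes after centring on each group. With 2 libraries per group and genes of low count included, this value cannot decide whether the numbers pair the libraries.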
